A study of Drosophila melanogaster with 6 samples.

Results

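The genes described here are factors of the germ plasm, of RNA localization in the egg and of germ-line differentiation in the fruit fly Drosophila melanogaster: osk, nos, pgc, gcl, tud, exu, swa, stau, tut and bam. Members were taken by gene symbol, and 9 of the 10 genes were named by a probe set, with 12 of the 18769 probe sets tested. Pgc, a small protein that keeps transcription off in the first germ cells, was not named by any probe set and is not analysed here. Expression was measured on 6 Affymetrix Drosophila Genome 2 arrays. The zld germ-line clone group (3 arrays) held embryos whose mothers had a germ line mutant for zelda (zld), a maternally loaded transcription factor that activates the early zygotic genome, and the wild-type group (3 arrays) held embryos of the yw stock. Embryos of both groups were 1 to 2 h old, and by DAPI staining 90% of those checked were in nuclear cycles 8 to 13. The labels name neither the zld allele nor a control germ-line clone, so effects of zld and of the strain background cannot be told apart.

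In the fly, the egg receives its germ-line determinants from the mother as localized RNAs and proteins. Oskar nucleates germ plasm at the posterior pole, where nanos RNA and other maternal RNAs are held, and nuclei that reach this cytoplasm bud off as pole cells, the founders of the germ line. Exuperantia, Swallow and Staufen act in moving or anchoring RNAs such as bicoid and oskar. Bam and Tut are germ-line factors of a later step, the exit of germ cells from amplifying divisions in the gonad. Because whole embryos were profiled, a lower number of cells holding an RNA and less RNA per cell cannot be told apart, and the arrays do not show where in the embryo an RNA lay.

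The signals are linear intensities, scaled by the authors to a common level per array. Signals of 27 Bacillus control probe sets, which match no fly gene, had a 95th percentile of 18.1, used here as the background level. All 12 member probe sets were above it on all 6 arrays. Median signals over all probe sets ran from 16.2 to 18.1 on mutant and from 20.1 to 23.1 on wild-type arrays. The zld probe set gave 263, 196 and 215 on the mutant arrays and 1023, 1062 and 967 on the wild-type arrays (log2 fold change -2.11, adjusted p = 1.92e-04, limma). Of the early embryo markers, 12 of 12 measured genes had means above background in both groups, among them the maternal RNAs of bcd, cad and tor. The zygotic patterning genes eve, ftz, sna and tll, 4 of these 12, were called lower in the mutant embryos, with log2 fold changes from -1.01 to -0.78 (adjusted p from 0.0234 to 0.0471, limma). The patterning genes Kr (-0.42, adjusted p = 0.489, limma) and twi (-0.083, adjusted p = 0.831, limma) of the same list were not called. Of 9 muscle and matrix genes of older embryos, 0 were called, against 1.64% of all probe sets. However, all 9 had a log2 fold change below 0, with a median of -0.80, against -0.050 over all probe sets. The groups were separate for Col4a1, Mlc1, Mlc2, SPARC, up and vkg and overlapped for LanA, LanB1 and LanB2. The summed signal of the 9 genes was 479 and 838 on wild-type replicates 1 and 2. It was 217 on wild-type replicate 3 and 192 to 227 on the mutant arrays. The called result is therefore also given without wild-type replicates 1 and 2, as an effect size only, since 1 wild-type array is then left. With 3 arrays per group precision is limited throughout, and fold changes are mutant over wild type on the log2(signal + 16) scale.

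Of the 9 measured genes, 1 was called at an adjusted p under 0.05, and it was higher in zld germ-line clone embryos. Over all probe sets 1.64% were called, 0.863% higher and 0.778% lower. The members, and the lists below, were chosen with earlier results of these data known, so their counts and ranks are not independent of these data. At an unadjusted p under 0.05 there were 2 of the 9 genes, tut and exu, against 15.4% of all probe sets. The gene called was tut. The other 8 genes had log2 fold changes from -0.26 to 0.65. For 7 of these 8 the 95% interval of the difference lay within 2-fold in either direction, as it did for 92.1% of all probe sets. The median of the probe set means was 19.0, close to background, so many probe sets behind these shares were dimmer than the members. The median log2 fold change of the 9 genes was 0.11, against -0.050 over all probe sets. This median rested on single arrays, with 0.011 without wild-type replicate 1, 0.045 without mutant replicate 3 and 0.21 without wild-type replicate 3. It was -0.079 without wild-type replicates 1 and 2 together, which leaves 1 wild-type array. The 3 mutant arrays lay above the 3 wild-type arrays for tut, exu and tud and below them for 0 genes, where 8.11% and 13.6% of all probe sets did so. The groups overlapped for the other 6.

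**Figure D1:**
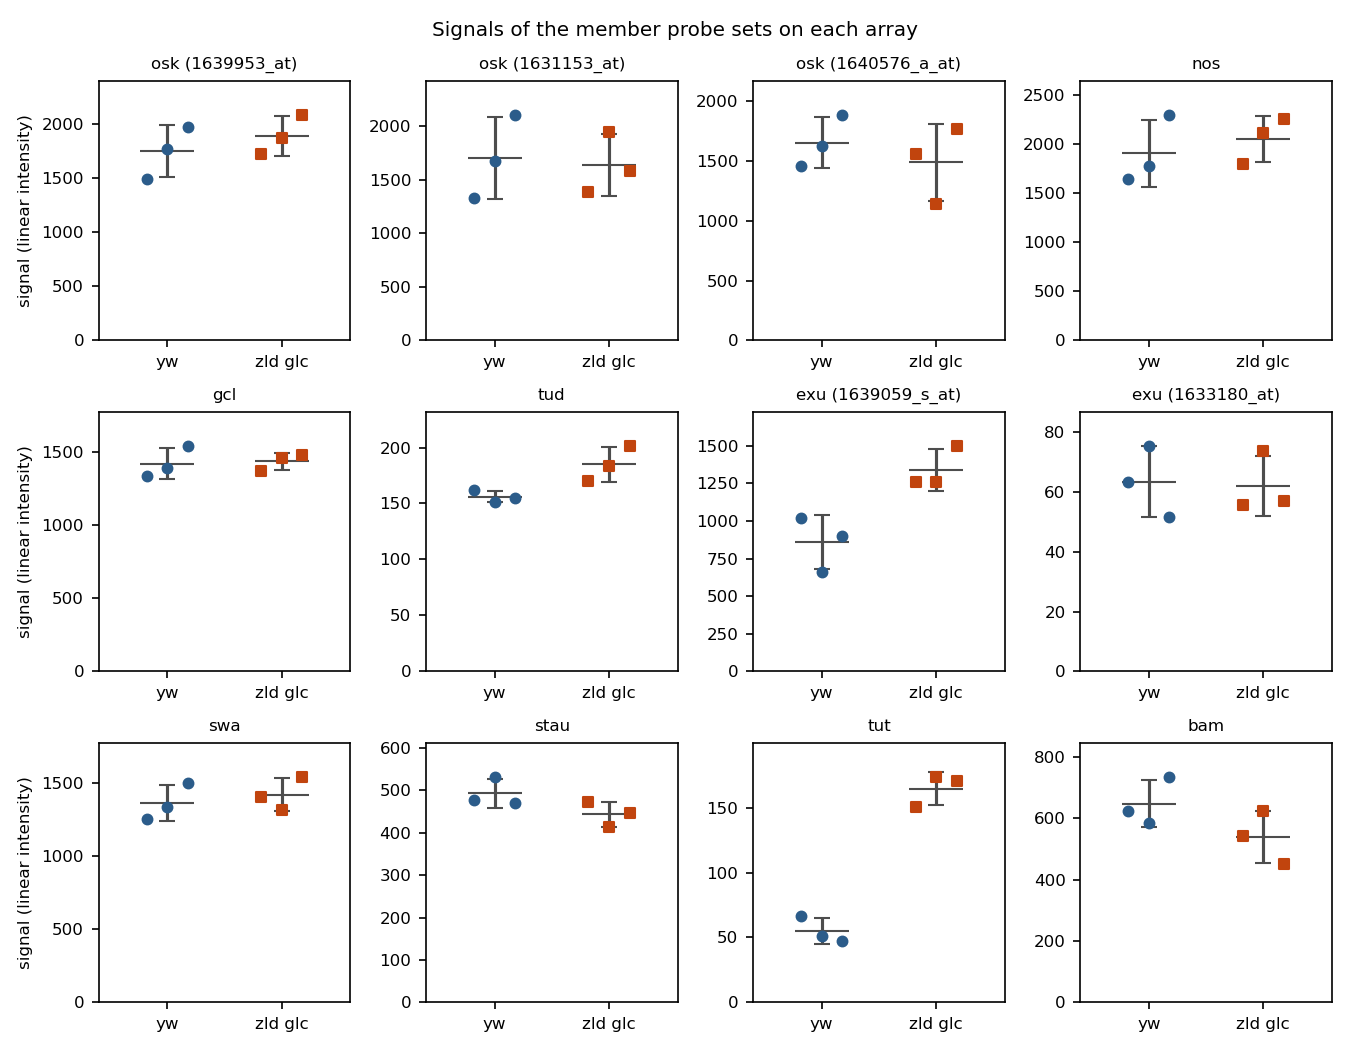
Signals of the 12 member probe sets (vertical axis, linear intensity from 0) on the 3 yw arrays (circles) and the 3 zld germ-line clone arrays (squares), ordered by replicate number within a group, with the mean and SD of each group. Tut separates the groups, with 150 to 173 on mutant and 47.0 to 66.6 on wild-type arrays, while osk, nos, gcl and swa overlap.

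Tut (tumorous testis) encodes an RNA-binding protein that acts with Bam and Bgcn to hold down mei-P26 protein and end the amplifying divisions of male germ cells. Its signal was 150, 173 and 170 on mutant replicates 1, 2 and 3. On wild-type replicates 1, 2 and 3 it was 66.6, 51.4 and 47.0. The lowest mutant array was 2.26-fold above the highest wild-type array, and the group means, 165 ± 12.4 and 55.0 ± 10.3 (SD, n = 3 each), differed 2.99-fold. On the log2(signal + 16) scale tut rose by 1.35 (SE 0.143, 95% interval 1.02 to 1.68, adjusted p = 0.00434, limma), a larger log2 fold change than that of 99.7% of all probe sets. The wild-type arrays were low but above the background level of 18.1. That level comes from control probe sets, and whether the tut probe set has nonspecific signal of its own was not tested. The call held in 16 of 17 alternative settings, with log2 fold changes from 0.94 to 1.58, and ended with the methods' t-test (adjusted p = 0.0875; range over all alternatives 0.00132 to 0.0875). Without wild-type replicates 1 and 2 together, a setting among the 17 that leaves 1 wild-type array, the log2 fold change was 1.52.

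Bam (bag of marbles), the differentiation factor that Tut binds, did not share this difference. Its signal was 542, 622 and 452 on the mutant arrays and 623, 586 and 733 on the wild-type arrays. Its log2 fold change was -0.26 (SE 0.134, 95% interval -0.57 to 0.046, adjusted p = 0.395, limma). The lowest of the 6 values was on mutant replicate 3 and the highest on wild-type replicate 3, and the groups overlapped through mutant replicate 2. Bgcn, the third protein of the complex, averaged 25.2 ± 3.25 on mutant and 24.4 ± 3.88 on wild-type arrays (SD, n = 3 each), close to background. Mei-P26, whose protein output the complex lowers in male germ cells, had 306, 274 and 358 on mutant and 302, 304 and 334 on wild-type arrays, a log2 fold change of -0.0083. Levels of different genes are not compared, since each probe set has its own response.

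Because tut is named for its testis phenotype, markers of male germ cells were set beside it. Of 10 testis genes, 0 were called, against 1.64% of all probe sets. The regulators and effectors of spermatocyte transcription or sperm differentiation aly, can, sa, nht, dj and Mst87F were below background in the mean of both groups. Mia, which encodes a testis TAF, was above background, with 63.2, 67.8 and 73.9 on mutant and 41.3, 59.1 and 39.3 on wild-type arrays. Its groups did not overlap and had the order of those of tut (log2 fold change 0.44, adjusted p = 0.288, limma). Mst98Ca, a sperm tail protein gene, had the opposite order, with means of 28.3 ± 5.55 against 43.6 ± 1.25 (SD, n = 3 each) and separate groups, and did not pass (-0.44 on the log2 scale, limma adjusted p = 0.315). The mitofusin gene fzo averaged 9.50 on mutant and 20.3 on wild-type arrays, with overlapping groups. The summed signal of the list was 1002, 1290 and 1302 on the mutant and 908, 1077 and 1108 on the wild-type arrays, and most of it came from twe, a maternal phosphatase gene that testes also express. Eggshell and yolk genes, markers of ovary tissue, summed to 116 to 168 on mutant and 137 to 220 on wild-type arrays, with 0 of 11 called. Whether RNA of either tissue had a part in the tut result was not tested.

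The core germ plasm RNAs had high signals in both groups. Osk was read by 3 probe sets. The brightest gave 1721, 1871 and 2084 on the mutant arrays and 1497, 1771 and 1977 on the wild-type arrays, and its log2 fold change was 0.12 (SE 0.127, 95% interval -0.17 to 0.41, adjusted p = 0.692, limma). The second gave 1381, 1947 and 1579 against 1332, 1670 and 2102, a log2 fold change of -0.046. The third gave 1558, 1140 and 1768 against 1455, 1623 and 1882, a log2 fold change of -0.17 (95% interval -0.56 to 0.23). The 3 probe sets therefore did not have the same sign, each interval included 0, and on mutant replicate 2 one read the highest and another the lowest of its 3 mutant values. In the RefSeq gene table the osk locus overlaps a pair of noncoding genes, lncRNA:osk and asRNA:CR44020, and the files do not say which probe set reads which transcript or strand.

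Nos (nanos), the RNA-binding repressor that patterns the abdomen and protects germ-cell fate, had signals of 1795, 2114 and 2257 on mutant and 1649, 1779 and 2295 on wild-type arrays. Its log2 fold change was 0.11 (SE 0.146, 95% interval -0.22 to 0.45, adjusted p = 0.737, limma). Wild-type replicate 3 had the highest value of all 6 arrays and wild-type replicate 1 the lowest, so the wild-type arrays enclosed the mutant ones. The same was true of gcl (germ cell-less), which is needed for pole cells to form, with 1372, 1461 and 1482 against 1333, 1388 and 1540. The log2 fold change of gcl was 0.020 (95% interval -0.19 to 0.23, adjusted p = 0.936, limma), the smallest of the 9 genes.

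Tud (tudor), a scaffold of the polar granules, had 170, 184 and 201 on mutant and 162, 152 and 155 on wild-type arrays. The groups did not overlap, but the gap between mutant replicate 1 and wild-type replicate 1 was small, a factor of 1.05. The log2 fold change was 0.22 (SE 0.101, 95% interval -0.011 to 0.45, adjusted p = 0.348, limma), so the difference did not pass the threshold. It kept its sign in all 17 alternatives, from 0.16 to 0.38, and was called in 0 of them. Several of these settings, such as other tests and filters, cannot change the log2 fold change of a gene with 1 probe set.

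Among the genes of RNA localization, exu had the largest difference. Exuperantia acts in the transport of bcd RNA in the ovary and also in spermatogenesis. The brighter of its probe sets gave 1261, 1259 and 1497 on mutant and 1019, 662 and 898 on wild-type arrays. All mutant arrays were above all wild-type arrays, with wild-type replicate 2 the lowest. The log2 fold change was 0.65 (SE 0.159, 95% interval 0.28 to 1.01) with an adjusted p of 0.0990 (limma), short of the threshold over all probe sets. It passed with median centring of the arrays (0.80, adjusted p = 0.0481) and when probe sets below the median signal were left out (0.65, adjusted p = 0.0400), with a range from 0.0400 to 0.964 for the adjusted p across settings. The dimmer probe set gave 55.6, 73.5 and 56.8 on mutant and 63.4, 75.2 and 51.5 on wild-type arrays, a log2 fold change of -0.022 (95% interval -0.43 to 0.39). The probe sets of exu thus gave different values, the brighter one carries the suffix of probe sets that can match more than 1 transcript, and the difference between them was not tested.

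Swa (swallow), which anchors bcd RNA at the anterior cortex, had 1407, 1314 and 1540 on mutant and 1254, 1339 and 1498 on wild-type arrays. Its log2 fold change was 0.059 (95% interval -0.18 to 0.30, adjusted p = 0.820, limma). A neighbouring pseudogene, swaPsi, lies beside swa in the RefSeq table and was not named by a probe set; whether the swa probe set also reads it was not tested. Stau (staufen), a double-stranded RNA-binding protein that accompanies both osk and bcd RNA, had 472, 413 and 446 on mutant and 476, 531 and 471 on wild-type arrays. The groups overlapped by the small margin between mutant replicate 1 and wild-type replicate 3. The log2 fold change of stau was -0.15 (95% interval -0.36 to 0.064, adjusted p = 0.489, limma).

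**Figure D2:**
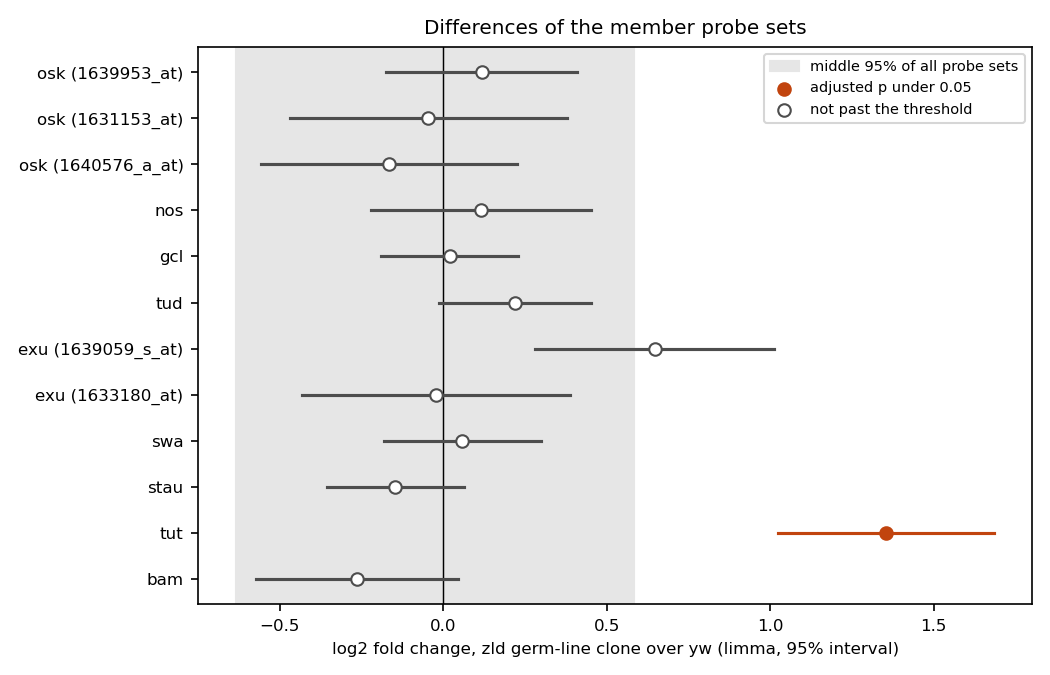
Log2 fold changes of the 12 member probe sets (horizontal axis, zld germ-line clone over yw, limma) with 95% intervals, filled where the adjusted p was under 0.05; the grey band spans the middle 95% of all probe sets, from -0.63 to 0.58. Tut at 1.35 lies beyond the band with its whole interval, the brighter exu probe set at 0.65 lies just outside it, and the other 10 lie within it.

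The spread between arrays differed among these genes. Within a group, the coefficient of variation ran from 3.31% for tud on the wild-type arrays to 22.7% for the second osk probe set on the wild-type arrays. Of the 7 member probe sets with a mean signal above 1000, 6 had their lowest wild-type value on replicate 1 and their highest on replicate 3. This held for 56.8% of all 710 probe sets above that signal and for 17.5% of all probe sets, so bright probe sets in general differed among the wild-type arrays in this way. The order on the mutant arrays was not counted. There the brightest osk probe set, nos and gcl rose with replicate number, while the other osk probe sets, exu and swa did not. The highest signal per array rose with it in both groups (3253, 3983 and 4275 on mutant, 2822, 3281 and 3997 on wild-type arrays). Quantile normalization, which gives all arrays the same distribution of signals, moved the log2 fold change of osk from 0.12 to 0.029, that of nos from 0.11 to 0.023 and that of swa from 0.059 to -0.0019, and gave 1.41 for tut.

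The measured genes lie on several chromosome arms: swa on X, tut on 3L, osk, nos and bam on 3R, and gcl, tud, exu and stau on 2R. Genes next to or overlapping the members in the RefSeq table were looked up for local changes. Of 18 such genes of the measured members with a probe set, 0 were called, against 1.64% of all probe sets. The neighbours of tut, CG13679 and CG8006, had log2 fold changes of -0.016 and -0.12, with CG8006 below background in both groups. The largest differences were those of CG5835, beside nos, at 0.74 (adjusted p = 0.116, limma), and Lapsyn, beside tud, at -0.67 (adjusted p = 0.231, limma). Galla-1, which overlaps exu, was at 0.0093, and CG11854, which overlaps bam, was below background.

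Genes that act with the members were counted in 4 lists, to be read beside the 1.64% of all probe sets that were called. Of 11 measured genes of germ plasm assembly, germ plasm RNAs and germ cell survival, 0 were called in either direction, and their median log2 fold change was 0.025. The RNA helicase gene vas had 63.8, 59.4 and 65.3 on mutant and 30.8, 28.3 and 29.4 on wild-type arrays, with separate groups; the log2 fold change of 0.79 (95% interval 0.42 to 1.17) had an adjusted p of 0.0600 (limma). The piRNA-binding protein gene aub had 610, 587 and 582 against 488, 471 and 399, a log2 fold change of 0.38 (adjusted p = 0.106, limma). Both had the direction of tut and neither passed. Wun, a lipid phosphatase gene that guides germ cell migration and survival, went the other way, with 117, 121 and 136 on mutant and 172, 178.5 and 144 on wild-type arrays, and did not pass either (log2 fold change -0.36, adjusted p = 0.203, limma). Vas passed in 6 alternatives, among them a pseudocount of 1 (1.07, adjusted p = 0.0288, limma) and quantile normalization (0.92, adjusted p = 0.0386, limma), and aub passed in 2.

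Of 9 measured genes of translation control and decay of osk and nos RNA, 0 were called, with a median of 0.081 and values from -0.17 to 0.22. The median was 0.013 without wild-type replicate 1, 0.20 without mutant replicate 1 and -0.11 without wild-type replicates 1 and 2 together. Glo, an RNA-binding repressor of nos translation, was at 0.22 (adjusted p = 0.314, limma), and Imp, which binds osk RNA, was also at 0.22 (adjusted p = 0.427). Of 11 measured genes of osk and bcd RNA transport, 0 were called, with a median of 0.027 that became -0.066 without wild-type replicate 1. Egl, an adaptor between localized RNA and the dynein motor, had 475, 453 and 536 on mutant and 642, 595 and 705 on wild-type arrays. All mutant values of egl lay below the wild-type ones, with a log2 fold change of -0.40 (adjusted p = 0.110, limma), and egl passed in 1 alternative, with dim probe sets left out. Vps36, an ESCRT-II subunit that also binds bcd RNA, was at 0.52 with overlapping groups (adjusted p = 0.338, limma).

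Of 8 measured genes of germ-line differentiation, 0 were called by their brightest probe set, and the median was 0.070. Bol (boule), an RNA-binding protein of male meiosis, had 74.1, 53.2 and 62.4 on mutant and 30.7, 33.4 and 32.7 on wild-type arrays. These groups did not overlap, and the log2 fold change was 0.71 (95% interval 0.30 to 1.11, adjusted p = 0.104, limma), short of the threshold, which it passed in 3 alternatives. The brightest probe set of Sxl was at 0.26 (adjusted p = 0.307, limma). Another probe set of Sxl gave 61.0, 58.5 and 53.5 on mutant and 261, 220 and 120 on wild-type arrays and fell by 1.49 on the log2 scale (adjusted p = 0.0268, limma), the only call among 16 further probe sets of the list genes. It was called in 7 of the 15 alternatives that hold this probe set (adjusted p from 0.00264 to 0.219) and not when any 1 mutant array or wild-type replicate 2 was left out, the last at -1.40 (adjusted p = 0.0813, limma). Its wild-type values were highest on replicates 1 and 2, the arrays with the highest summed muscle and matrix signal. Without these, 1 wild-type array is left, and the probe set was at -0.89. The part of replicates 1 and 2 in the result was not tested. Over the 4 lists together, 4 of 39 genes had all mutant arrays below and 4 had them above, against the 13.6% and 8.11% of all probe sets.

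**Figure D3:**
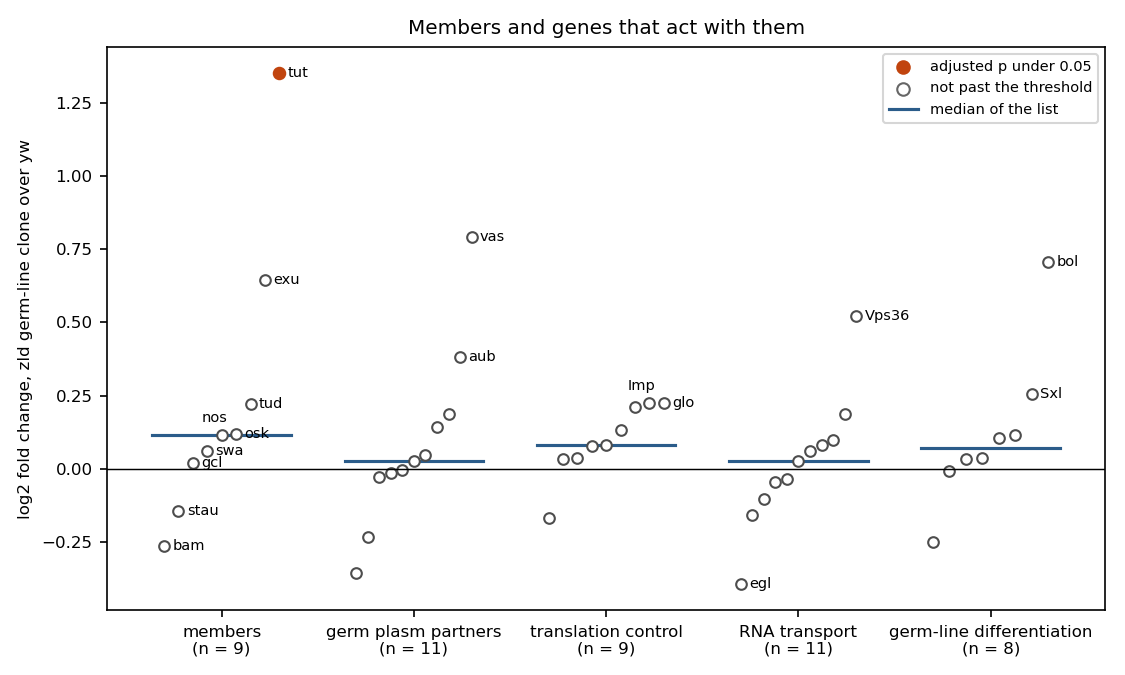
Log2 fold changes (vertical axis, zld germ-line clone over yw) of the 9 members and of the genes of 4 lists, 1 point per gene by its brightest probe set, with the median of each list as a line and names given for the members and for the 2 named genes of each list. Tut is the only filled point, and the medians lie between 0.025 and 0.11.

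The genes whose signals ran most like those of tut over the 6 arrays, by Pearson correlation of log2 values, were CG31886 (r = 0.997), mod(mdg4) (r = 0.993) and CG1827 (r = 0.992). CG31886 averaged 397 ± 22.3 on mutant and 199 ± 15.5 on wild-type arrays (SD, n = 3 each), a log2 fold change of 0.95 (adjusted p = 0.00336, limma). The probe set of mod(mdg4), a chromatin insulator gene with many isoforms, was at 0.65 (adjusted p = 0.0196, limma), and that of CG1827 was at 0.70 (adjusted p = 0.0715, limma). For osk the most alike were CG10077 (r = 0.998), Vha16-1 (r = 0.985) and 14-3-3epsilon (r = 0.984), with log2 fold changes from 0.048 to 0.16. These r values were picked as the highest among all named probe sets with a mean above 19.0, the median of the probe set means. They describe 6 arrays and carry no test.

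**Figure D4:**
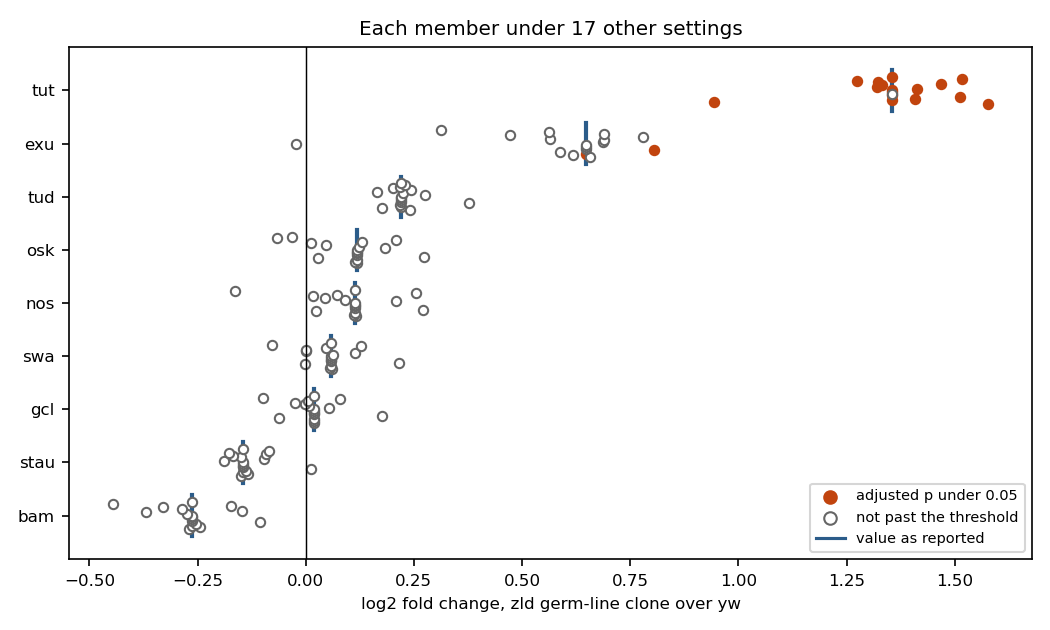
Log2 fold changes of the 9 members (horizontal axis, zld germ-line clone over yw) under 17 alternative settings, 1 point per setting, filled where the adjusted p was under 0.05, with the reported value as a line. All points of tut lie at 0.94 or above, exu is filled under 2 settings, and exu, osk, nos, swa, gcl and stau have points on both sides of 0.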

How the data were processed

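Scans were processed and normalized by the authors with the Affymetrix GeneChip Operating Software, per the series text; no version is named. The deposited intensity signals are linear, and no detection calls came with them. Trimmed array means (without the lowest and highest 2%) were 150.0 on all 6 arrays. Gene symbols came from the platform annotation and were brought up to date by gene identifier with the RefSeq table of assembly GCF_000001215.4, where nos is listed under its full name; 13646 of 18769 tested probe sets had exactly 1 gene, and 183 control probe sets were left out. The brightest probe set stood for a gene.

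Differences were tested with limma 3.58.1 in R 4.3.3 (eBayes with a mean-variance trend) on log2(signal + 16) over all 6 arrays, with Benjamini-Hochberg adjustment over all probe sets and a threshold of 0.05. Replicate collections number 3 in the series text and are called duplicate in the sample protocol. Whether the 3 arrays of a group are independent collections therefore cannot be told, and p-values cover only the spread between these samples. On simulated data of 18769 probe sets with 200 changed, 64% of 2-fold and 94% of 4-fold changes were recovered, and unchanged probe sets made up 6.51% of the calls. The 200 were drawn from probe sets above the median mean signal and changed on the log2(signal + 16) scale, so the recovery does not cover dimmer probe sets. Members and lists were chosen with earlier results of these data known. Of 49 list entries, 39 were measured. Named besides all members and zld were the 2 genes of each list with the largest difference above background and the 3 genes most like osk and tut; bgcn, mei-P26, wun, neighbours of members, single marker genes and the Sxl probe set that fell were named after their values were seen. Alternatives were other pseudocounts (1 and 64), scalings, filters, tests, a replicate block and leaving out arrays. Those that change only the test, the block or the filter leave the log2 fold change of a gene with 1 probe set, such as tut, unchanged. Figures were drawn with Python 3.11.15 and matplotlib 3.10.9.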

Additional observations from a re-analysis of the deposited data

How the results depend on the processing

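Tut was called in all alternatives but the methods' t-test, where its log2 fold change of 1.35 had an adjusted p of 0.0875 and 0 members were called; zld, at -2.11, was not called there either (adjusted p = 0.0836). In all settings run, 0 members were called lower, and 0 were lower at an unadjusted p under 0.05 in the reported limma fit. With exu, 2 members were called higher with median centring and with dim probe sets left out. Signs turned for members near 0. Quantile normalization gave -0.061 for gcl and -0.0019 for swa. Leaving out 1 array gave -0.024 to 0.079 for gcl and -0.0002 to 0.128 for swa, below 0 for gcl without mutant replicate 3 or wild-type replicate 1 and for swa without mutant replicate 3. With the same sign throughout, it gave 0.011 to 0.21 for osk, 0.018 to 0.25 for nos and -0.37 to -0.15 for bam. Without wild-type replicates 1 and 2, osk was at -0.067, nos at -0.164, gcl at -0.098 and swa at -0.079. Osk was at -0.031 as the mean of its probe sets, and stau at 0.012 with median centring. Exu was at -0.022 with suffixed probe sets left out, because its dimmer probe set then stood for it. The cause of the other turns was not tested.

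Over all probe sets, 146 were called lower and 162 higher. With dim probe sets left out these were 265 and 330 of the 9383 then tested, with median centring 127 and 552, and with the methods' t-test 0 and 2. Leaving out 1 array gave 45 to 213 lower and 35 to 227 higher, and leaving out wild-type replicates 1 and 2 gave 43 and 51. Median centring moved the median log2 fold change of all probe sets from -0.050 to 0.11 and that of the members from 0.11 to 0.27, and quantile normalization gave -0.0047 and 0.023. With it the list medians were -0.015 for germ plasm, -0.017 for translation control, -0.047 for transport and 0.14 for differentiation. In the 4 lists, 0 of 39 genes were called, and 7 had an unadjusted p under 0.05 (limma), against 15.4% of all probe sets. Of the list genes, 1 was called higher with a pseudocount of 1, with quantile normalization and with suffixed probe sets left out, 2 with eBayes without trend, and 3 with median centring. With dim probe sets left out, 3 were called higher and 1 lower.

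With the replicate number as a block, 76 probe sets were called lower and 75 higher, and tut remained called (1.35, adjusted p = 0.0298). Deviations of same-numbered arrays correlated at 0.147, -0.00154 and -0.0349 for replicates 1, 2 and 3. Mutant replicate 2 correlated best with wild-type replicate 3 (0.126), a value below that of the replicate 1 pair. Deviations from the mean of 3 arrays are tied to one another, so these values cannot decide whether same-numbered arrays share more than a number. The number of arrays, and signals near background for bgcn, limit what these data can show.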
